A study of Mus musculus with 30 samples.

Results

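The 10 genes described here are receptors, ligands and targets of the Notch pathway, and were chosen by name: the receptors Notch1, Notch2, Notch3 and Notch4, the ligands Jag1, Jag2 and Dll1, and the target genes Hes1, Hes5 and Hey1. All 10 had a row in the expression table, which holds 16995 genes. The table came from RNA-seq of intermediate spinal grey matter (C5/C6 level), dissected from the hemicord that a cortical stroke had deprived of its corticospinal input. Adult female C57BL/6 mice aged 2 to 3 months received a photothrombotic stroke of the right sensorimotor cortex, in which a light-activated dye clots vessels under the illuminated skull, and tissue was taken 4, 7, 14, 28 or 42 days post-injury (dpi). The control group (labelled Ctrl) received a sham operation, and its time of tissue collection was not given in the sources used here. Each library was made from 1 animal, with 5 animals in each group apart from 4 dpi, where 4 of the 5 labelled animals had a column in the table. By the methods of the study, more animals were operated, and those sequenced were picked by scores of lesion, motor deficit, dissection and RNA. The methods also state that 1 sample at 4 dpi was left out as an outlier of the expression test. The labels name no transgene and no drug. By the methods of the study, the dye was injected into the abdomen before illumination. Surgery was under isoflurane, with an analgesic in the drinking water afterwards and antibiotics where needed.

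Notch receptors are single-pass membrane proteins that are switched on by ligands of the Jagged and Delta-like families on a neighbouring cell. Ligand binding leads to cleavage by an ADAM protease and then by gamma-secretase, which frees the receptor's intracellular domain to enter the nucleus, where it joins the DNA-binding protein RBPJ and Mastermind coactivators and switches on genes such as those of the Hes and Hey families of transcriptional repressors. In the central nervous system the pathway is known for keeping neural progenitors undifferentiated and for its roles in astrocytes and blood vessels; Notch3 is best known from vascular mural cells and Notch4 from endothelium. In bulk tissue, more cells of a type and more RNA per cell cannot be told apart.

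Values are normalized CPM, read counts scaled to library size by the authors with edgeR and rounded to 0.1. The columns do not add up to a fixed total. A log2 fold change is a difference between group means of log2(value + 0.5), with its standard error (SE) or its 95% interval. A gene is said to have passed the test when its limma p, adjusted by the Benjamini-Hochberg procedure over all 16995 genes, was under 0.05. The median value per animal lay between 10.2 and 11.2, while the column sums lay between 714597 and 2256910, and the row of the 18S ribosomal RNA gene Rn18s-rs5 lay between 18295 and 817780. All 5 comparisons with sham share the same 5 sham animals, and the comparisons of 28 dpi with 14 dpi and of 42 dpi with 28 dpi share the 28 dpi animals, so they are not independent of each other. The first part of the animal numbers (A1 to A12) was almost fully nested in the groups: only A3 occurred in more than 1 of them (28 and 42 dpi), so a numbering batch and the time point cannot be told apart.

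At 28 dpi, Notch1, Notch2 and Notch3 were higher than in sham animals and Hey1 was lower, on the deposited scale. There 24.9% of all genes passed, 11.9% higher and 13% lower. Setting columns to equal sums shifts the median of all genes to -0.72 on the log2 scale. The values of the 3 receptors were then below sham without passing, and above that median, and Hey1 kept its direction. All 4 calls were lost with ribosomal RNA as a covariate, at log2 fold changes of 0.51, 0.29, 0.77 and -0.24 beside 0.56, 0.32, 0.74 and -0.29 without it, in a limma fit in which no gene passed (3751 genes, 5 of them members, had an unadjusted p under 0.05), and that of Notch2 also with a correction for transcript length and GC content. No member passed the test against sham at 4, 7, 14 or 42 dpi, where 0.106%, 0.0294%, 0.00588% and 0.0235% of all genes passed. From 14 to 28 dpi all 4 receptors rose, by between 1.36-fold for Notch4 and 1.81-fold for Notch1, and Hey1 fell to 0.80 of its level, on the deposited scale, where 21% of all genes passed higher and 21.9% lower. With equal column sums none of these 5 passed (adjusted p between 0.165 for Notch1 and 0.691 for Notch4), and the Notch4 call was also lost with the length and GC correction and without the 28 dpi animal A3-3 or A4-3. From 28 to 42 dpi Notch1 and Notch3 were called lower close to the threshold (limma, adjusted p = 0.0331 and 0.04999), where 0.494% of all genes passed lower. Both calls were lost in 7 of the 10 fits that left out 1 animal. They were also lost in fits of 2 groups, with the length and GC correction and with equal column sums. The ligands Jag1, Jag2 and Dll1 and the targets Hes1 and Hes5 passed the test in none of the 7 pairwise comparisons on the deposited scale; with equal column sums Jag2 (-0.79), Dll1 (-0.85) and Hes1 (-0.98) passed lower at 28 dpi against sham, beside the median of all genes of -0.72. In the F test across the 6 groups, 5 of the 10 members passed: the 4 receptors and Hey1. Of all genes, 31.6% passed that F test.

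**Figure D1:**
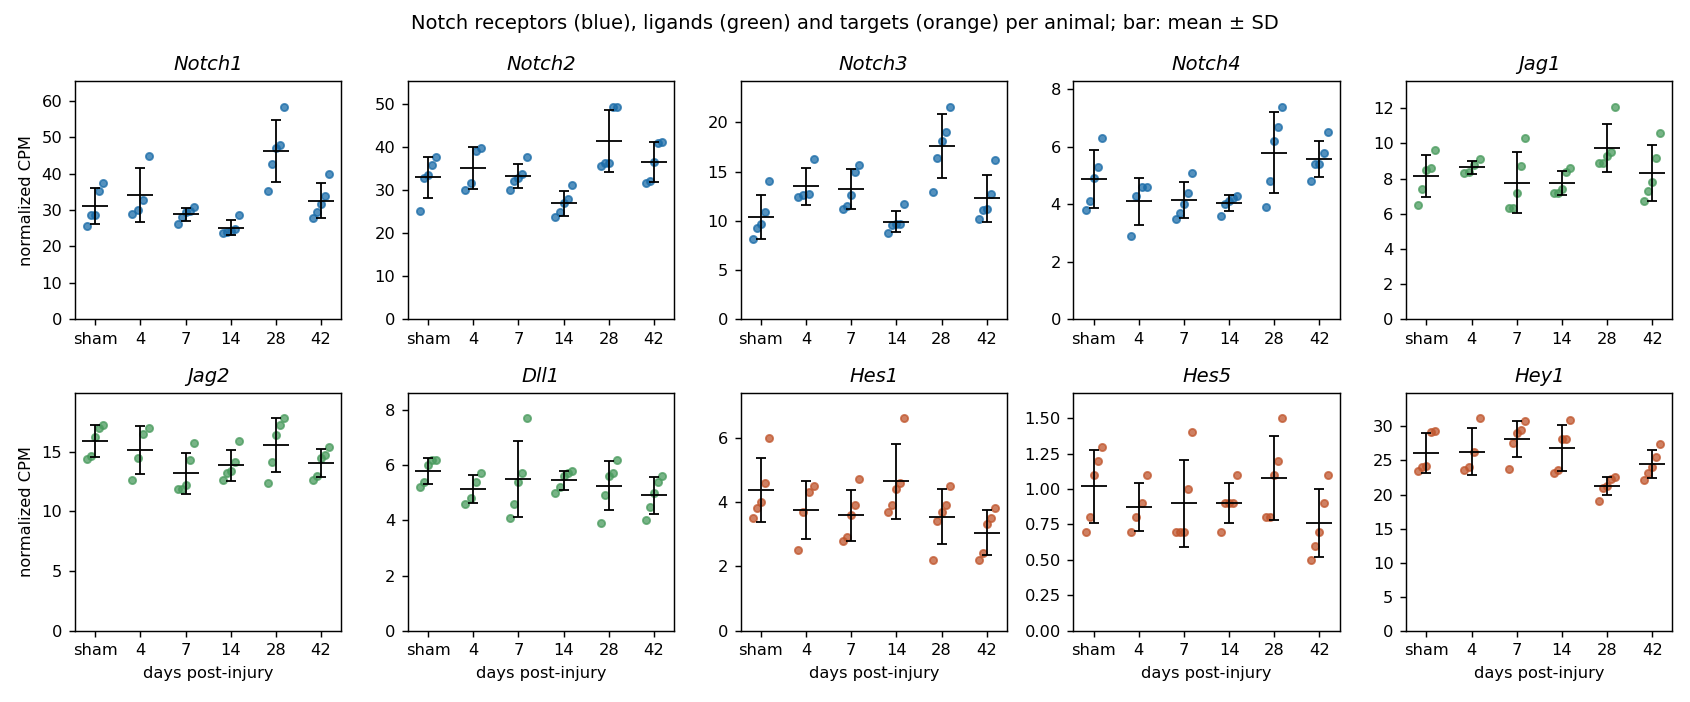
Values of the 10 genes (normalized CPM, vertical axes from 0) in each animal, for sham and for 4, 7, 14, 28 and 42 days post-injury. Points are animals and bars the mean ± SD (n = 5, and 4 at 4 dpi). Notch1 and Notch3 stood highest at 28 dpi (means 46.2 and 17.6), where the 5 Hey1 values (19.1 to 22.5) lay below the 5 sham values.

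Promoter sequences are shown because RBPJ acts through a short DNA word. The RefSeq promoter table (build GRCm38.p6) matched 8 of the 10 members, with 9 windows of 250 bases before to 50 bases after a start site. Hes1 and Hey1 were not matched. The RBPJ word GTGGGAA, searched on both strands, was found in 6.38% of all 32851 windows of the table, and its core TGGGAA, which lies inside it, in 25.56%. Of the 9 windows of the 8 matched members, the Hes5 window held both and the others neither. It held GTGGGAA in 2 places, beginning 226 bases before the start site on the opposite strand and 83 bases before it on the gene's own strand. The 250 bases before the start site are given 5′ to 3′ for Hes5, as the window with the word, and for Notch1 and Notch3, the receptors with the largest change against sham at 28 dpi on the deposited scale. The RefSeq start of Notch1 lies inside the longer gene that the expression table gives. Capitals mark the RBPJ word, read as TTCCCAC where it lies on the opposite strand, and the other sequences hold none.
Hes5 (chr4:154960673-154960922, plus strand): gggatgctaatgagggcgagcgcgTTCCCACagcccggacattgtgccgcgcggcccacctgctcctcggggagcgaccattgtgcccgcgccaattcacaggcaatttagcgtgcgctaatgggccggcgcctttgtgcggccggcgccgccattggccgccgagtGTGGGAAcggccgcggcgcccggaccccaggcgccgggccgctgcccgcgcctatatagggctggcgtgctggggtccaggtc
Notch1 (chr2:26503823-26504072, minus strand): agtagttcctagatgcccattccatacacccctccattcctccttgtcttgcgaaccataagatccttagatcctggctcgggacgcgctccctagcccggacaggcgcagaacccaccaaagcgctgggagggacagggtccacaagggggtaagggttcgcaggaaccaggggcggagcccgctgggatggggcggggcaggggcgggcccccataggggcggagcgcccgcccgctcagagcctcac
Notch3 (chr17:32166891-32167140, minus strand): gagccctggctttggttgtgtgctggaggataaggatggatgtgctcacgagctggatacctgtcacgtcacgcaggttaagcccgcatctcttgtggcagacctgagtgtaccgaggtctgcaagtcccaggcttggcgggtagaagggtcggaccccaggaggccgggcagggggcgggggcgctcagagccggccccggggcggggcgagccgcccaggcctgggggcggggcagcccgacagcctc
A match of letters is a description and not evidence of binding.

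Levels can be compared between genes only per length, and for this each value was divided by the length of the gene's longest annotated transcript in kilobases. On that scale Hey1 was the highest of the 10 in sham animals, at 10.8 ± 1.21 normalized CPM per kilobase (SD, n = 5). Notch1 (3.27 ± 0.521), Notch2 (3.137 ± 0.456), Jag2 (3.11 ± 0.258) and Hes1 (2.98 ± 0.675) followed on the same scale and did not differ among each other beyond their spread. Dll1 (1.62 ± 0.131), Jag1 (1.45 ± 0.213) and Notch3 (1.30 ± 0.280) formed the next set per kilobase, again with overlapping spreads. Hes5 (0.801 ± 0.203) and Notch4 (0.740 ± 0.151) were the lowest per kilobase and overlapped each other. At 28 dpi the Notch3 level was 2.20 ± 0.403 per kilobase, beside 1.74 ± 0.240 for Jag1 and 1.47 ± 0.249 for Dll1, and the spreads of Notch3 and Jag1 overlapped there too.

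Notch1 (ENSMUSG00000026923, mm10 chromosome 2, 26457903 to 26516663, minus strand) encodes the receptor best known from neural progenitors. Its value was 25.5, 28.6, 28.7, 35.1 and 37.3 normalized CPM in the sham animals and 35.2, 42.6, 47.0, 47.9 and 58.4 at 28 dpi. At 28 dpi 4 of 5 animals lay above the sham range, and the animal A3-1 lay inside it. The log2 fold change was 0.56 (SE 0.119, adjusted p = 0.00238), from a mean of 31.0 ± 4.94 to 46.2 ± 8.46 (SD, n = 5 each).
The Notch1 mean was 34.1 ± 7.31 at 4 dpi (SD, n = 4) and 28.8 ± 1.82 on day 7 (n = 5). It was 25.1 ± 2.00 on day 14 and 32.5 ± 4.77 on day 42 (n = 5 each), and none of these passed the test against sham. The 14 dpi values were 23.8, 24.0, 24.2, 24.9 and 28.6, with 4 of 5 below the sham range, and the log2 fold change against sham of -0.29 had an adjusted p of 0.392. Every 28 dpi animal stood above every 14 dpi animal, with a log2 fold change between these groups of 0.85 (95% interval 0.61 to 1.10, adjusted p = 1.63e-05).

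Notch2 (ENSMUSG00000027878, chromosome 3, 98013527 to 98150361, plus strand) is a close relative of Notch1 with the same cleavage steps. It had values of 25.1, 32.8, 33.4, 35.8 and 37.6 normalized CPM in sham animals, and 35.6, 36.3, 36.3, 49.3 and 49.4 at 28 dpi. The animals A4-3 and A4-4 lay above the sham range at 28 dpi, and the other 3 lay within it. The log2 fold change at 28 dpi was 0.32 (SE 0.112, adjusted p = 0.0363), the smallest of the 3 receptor changes that passed.
This call rested on individual animals. It was lost without the sham animal A12-1 (log2 fold change 0.23, adjusted p = 0.152), without the sham animal A12-3 (0.32, adjusted p = 0.0617), and without the 28 dpi animals A4-3 (0.25, adjusted p = 0.118) or A4-4 (0.25, adjusted p = 0.114). At 14 dpi the Notch2 values were 23.7, 24.8, 26.9, 27.9 and 31.1. The groups at 14 and 28 dpi did not overlap, and the log2 fold change between them was 0.60 (95% interval 0.37 to 0.83, adjusted p = 0.000137), which stayed past the threshold whichever animal was left out. With the length and GC correction it was 0.31 (adjusted p = 0.00445), and with equal column sums 0.34 (adjusted p = 0.444).

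Notch3 (ENSMUSG00000038146, chromosome 17, 32120820 to 32166880, minus strand) showed the largest log2 fold change of the 10 members at 28 dpi against sham on the deposited scale; with equal column sums its value was the closest to 0 (-0.02) and that of Hey1 the farthest (-1.06). Sham values were 8.1, 9.3, 9.7, 10.9 and 14.0 normalized CPM, while the 28 dpi values were 12.9, 16.4, 18.1, 19.0 and 21.6, so that A3-1 alone lay within the sham range. The log2 fold change was 0.74 (95% interval 0.46 to 1.01, adjusted p = 0.00145), a 1.66-fold difference, and Notch3 was the only member past a 1.5-fold limit against sham.
The means at 4 dpi (13.5 ± 1.87, n = 4) and 7 dpi (13.2 ± 2.02, n = 5) were above the sham mean of 10.4 ± 2.25 (n = 5), with log2 fold changes of 0.38 and 0.34, but the adjusted p values were 0.703 and 0.802. At 14 dpi Notch3 was at 9.90 ± 1.07 (n = 5), and the rise from there to 28 dpi was 0.79 on the log2 scale (SE 0.137, adjusted p = 7.69e-05). The share of Notch3 in the summed value of the 4 receptors stayed between 10.5% and 15.5% in sham animals and between 13.5% and 17.6% at 28 dpi.

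Notch4 (ENSMUSG00000015468, chromosome 17, 34564268 to 34588503, plus strand), the receptor known from endothelium, had low values. Sham animals held 3.8, 4.1, 4.9, 5.3 and 6.3 normalized CPM. On day 14 the values were 3.6, 4.0, 4.1, 4.2 and 4.3, with little spread, and on day 28 they were 3.9, 4.8, 6.2, 6.7 and 7.4. The sham and 28 dpi groups overlapped (log2 fold change 0.22, 95% interval -0.08 to 0.52, adjusted p = 0.284). Against 14 dpi the log2 fold change at 28 dpi was 0.44 (SE 0.147, adjusted p = 0.0158), with 4 of 5 animals above the 14 dpi range. Without the 28 dpi animal A3-3 or A4-3 this adjusted p was 0.0509 or 0.0637, and with a correction for transcript length and GC content it was 0.166.

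**Figure D2:**
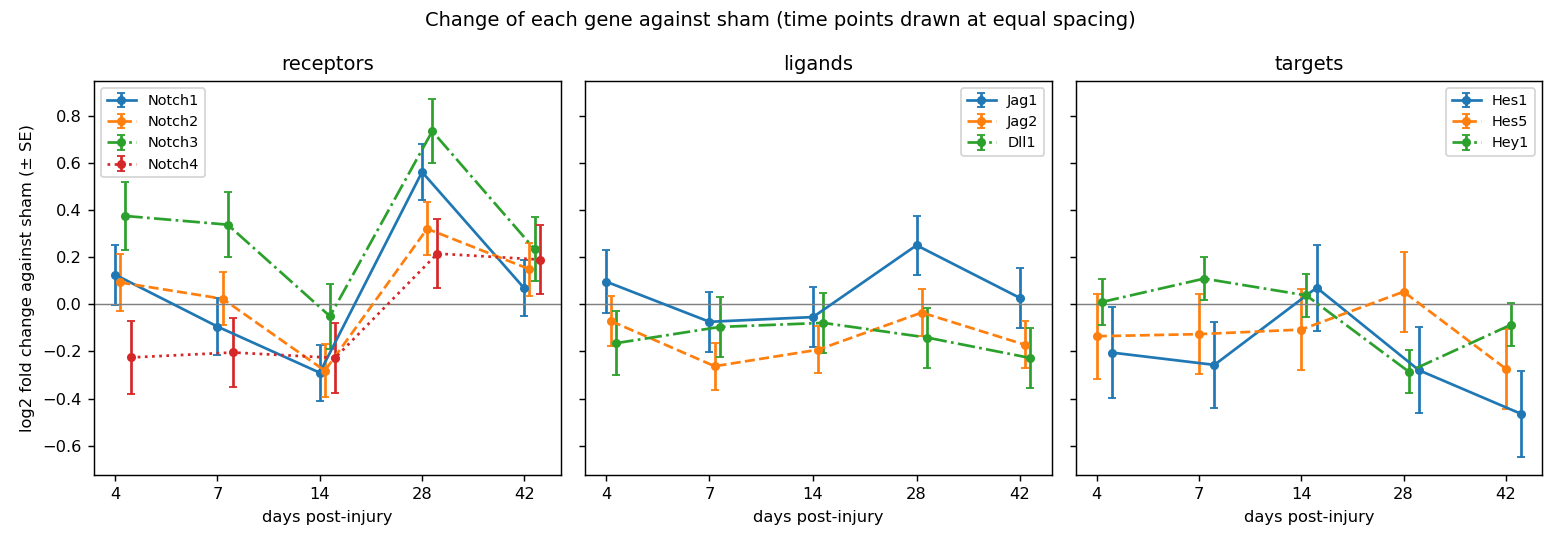
Log2 fold change against sham (± SE) of the receptors, ligands and targets at 4, 7, 14, 28 and 42 days post-injury, on the deposited scale and with the time points drawn at equal spacing. At 28 dpi Notch3 (0.74), Notch1 (0.56) and Notch2 (0.32) passed the test upward and Hey1 (-0.29) downward, and no other point did; with equal column sums the values of Notch1, Notch2 and Notch3 there lie below 0, as does the median of all genes (-0.72).

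Jag1 (ENSMUSG00000027276, chromosome 2), a Jagged-family ligand known from vessels and glia, did not pass in any comparison, on the deposited scale or with equal column sums. Its values were 6.5, 7.4, 8.5, 8.6 and 9.6 normalized CPM in sham animals, 7.2, 7.2, 7.4, 8.4 and 8.6 at 14 dpi and 8.9, 8.9, 9.3, 9.5 and 12.1 at 28 dpi. All 5 animals at 28 dpi stood above all 5 at 14 dpi, although the log2 fold change of 0.30 (95% interval 0.05 to 0.56) had an adjusted p of 0.0508. Under 5 of the 10 other settings tried it was under 0.05, and 0.0318 at the lowest. Against sham the log2 fold change was 0.25 (95% interval -0.01 to 0.51, adjusted p = 0.140) and 1 of 5 animals, A3-3, was above the sham range.
Jag2 (ENSMUSG00000002799, chromosome 12), the other Jagged ligand, ranged from 14.4 to 17.2 in sham animals, from 11.9 to 15.7 at 7 dpi and from 12.4 to 17.8 at 28 dpi. At 7 dpi 4 of 5 animals were below the sham range, with a log2 fold change of -0.26 and an adjusted p of 0.791. Dll1 (ENSMUSG00000014773, chromosome 17), the Delta-like ligand, ranged from 5.2 to 6.2 in sham animals and from 3.9 to 6.2 at 28 dpi, with a log2 fold change of -0.14 (95% interval -0.40 to 0.12).

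Hey1 (ENSMUSG00000040289, chromosome 3, 8663359 to 8667256, minus strand) encodes a basic helix-loop-helix repressor that Notch signalling is known to induce, among others in vessels. Its values were 23.5, 24.1, 24.2, 29.2 and 29.3 normalized CPM in sham animals, and 19.1, 20.9, 21.3, 22.3 and 22.5 at 28 dpi. The groups did not overlap, and Hey1 was the only member of the 10 for which that held at 28 dpi; 9.9% of all genes had groups that did not overlap. The log2 fold change was -0.29 (SE 0.0906, adjusted p = 0.0225), to 0.82 of the sham level.
The sham values fell into a lower set of 3 and a higher set of 2 animals (A12-1 and A12-2), and without either of these the Hey1 call was lost (log2 fold change -0.24 and -0.24, adjusted p = 0.0799 and 0.0659). It was also lost without the 28 dpi animal A3-3 (-0.28, adjusted p = 0.0529) or A4-3 (-0.25, adjusted p = 0.0660). At 14 dpi the values were 23.1, 23.6, 28.1, 28.2 and 31.0, again without overlap with 28 dpi, and this difference of -0.32 on the log2 scale (adjusted p = 0.00506) stayed past the threshold whichever animal was left out. At 42 dpi Hey1 was at 24.5 ± 2.05 (n = 5), and its log2 fold change from 28 dpi of 0.20 did not pass (adjusted p = 0.200).

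Hes1 (ENSMUSG00000022528, chromosome 16) and Hes5 (ENSMUSG00000048001, chromosome 4) encode repressors that are textbook Notch targets in neural progenitors. Hes1 ranged from 3.5 to 6.0 normalized CPM in sham animals, from 2.2 to 4.5 at 28 dpi and from 2.2 to 3.8 at 42 dpi. The log2 fold change was -0.28 (95% interval -0.65 to 0.09) at 28 dpi and -0.47 (95% interval -0.84 to -0.09) at 42 dpi, with adjusted p values of 0.261 and 0.221. Hes5, whose promoter window is printed above, ranged from 0.7 to 1.3 in sham animals and from 0.8 to 1.5 at 28 dpi, with a log2 fold change of 0.05 (95% interval -0.29 to 0.40). These Hes5 values are only a few rounding steps of 0.1 above 0 and close to the 0.5 added before the logarithm, so a change in this gene would have been understated.

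**Figure D3:**
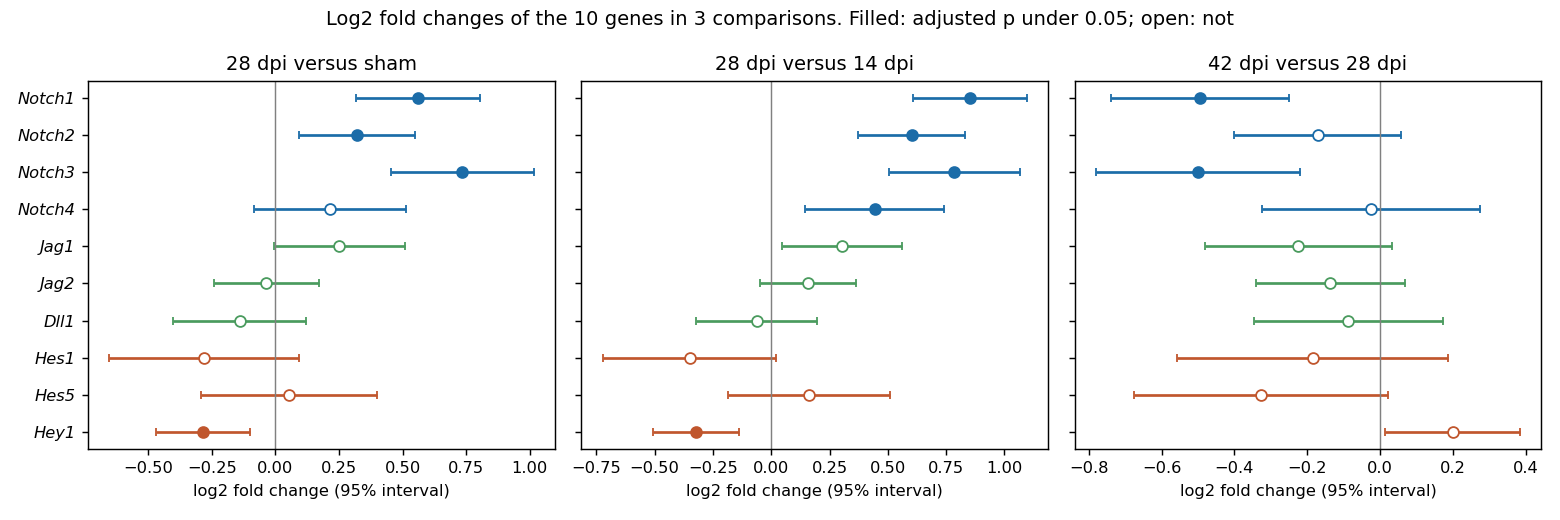
Log2 fold changes (points) with 95% intervals (bars) of the 10 genes for 28 dpi against sham, 28 dpi against 14 dpi and 42 dpi against 28 dpi, on the deposited scale; filled points had an adjusted p under 0.05. The 4 receptors are filled and to the right of 0 at 28 dpi against 14 dpi, and Notch1 and Notch3 are filled and to the left of 0 at 42 dpi against 28 dpi; with equal column sums the values of Notch1, Notch2 and Notch3 at 28 dpi against sham lie below 0, as does the median of all genes (-0.72).

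Counted over the list, 4 of 10 members passed the test at 28 dpi against sham, 3 higher and 1 lower, where 24.9% of all genes passed, 11.9% higher and 13% lower. With a fold limit of 1.5 as well, 1 member (Notch3) passed, and 4.64% of all genes. The median log2 fold change of the 10 members was 0.13, and that of all genes -0.0048. From 14 to 28 dpi 5 of 10 members passed, 4 higher and 1 lower, where 43% of all genes passed, 21% higher and 21.9% lower. Past the 1.5-fold limit there were 3 members (Notch1, Notch2 and Notch3) and 11.8% of all genes. For 5 members (Notch1, Notch2, Notch3, Jag1 and Hey1) the groups at 14 and 28 dpi did not overlap, which held for 22% of all genes. From 28 to 42 dpi 2 of 10 members passed, both lower, where 1.94% of all genes passed, 1.45% higher and 0.494% lower.
At the other time points none of the 10 members passed against sham, where the share of all genes that passed was 0.106% on day 4, 0.0294% on day 7, 0.00588% on day 14 and 0.0235% on day 42. With limma, an unadjusted p under 0.05 was reached by 1, 2, 2 and 1 of the 10 members on these days, and by 5.14%, 5.84%, 11.6% and 14.8% of all genes.

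From 28 to 42 dpi Notch1 changed by -0.49 on the log2 scale (95% interval -0.74 to -0.25, adjusted p = 0.0331) and Notch3 by -0.50 (95% interval -0.78 to -0.22, adjusted p = 0.04999). The 42 dpi values of Notch1 were 27.7, 29.4, 31.7, 33.7 and 40.0, and those of Notch3 10.2, 11.1, 11.2, 12.7 and 16.2. In both genes 4 of 5 animals were below the 28 dpi range. Both calls were lost in 7 of the 10 fits that left out 1 animal, with adjusted p values of up to 0.141 for Notch1 and 0.173 for Notch3, the highest of which came without A3-3. The log2 fold changes over these fits lay between -0.59 and -0.41 for Notch1 and between -0.60 and -0.42 for Notch3. Notch2 and Notch4 gave -0.17 (95% interval -0.40 to 0.06) and -0.03 (95% interval -0.33 to 0.27) in the same comparison and did not pass.

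The values of Notch1, Notch2 and Notch3 were correlated across animals. Over the 29 animals Pearson's r of the log2 values was 0.83 for Notch1 with Notch3, 0.79 for Notch1 with Notch2 and 0.67 for Notch2 with Notch3; after the group means were taken out it was 0.74, 0.60 and 0.42. Notch4 was less like them, with r between 0.34 and 0.49 over all animals and between 0.09 and 0.22 within groups. Hey1 had an r of -0.58 with Notch1 over all animals and -0.18 within groups. These are descriptions, and the values of 1 animal share a library and its RNA quality.
The sum of the 4 receptor values was 79.3 ± 11.04 normalized CPM in sham animals (62.5 to 90.2), 65.9 ± 5.92 at 14 dpi (60.5 to 75.6), 111 ± 15.3 at 28 dpi (87.6 to 123) and 86.8 ± 10.6 at 42 dpi (75.3 to 102).

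**Figure D4:**
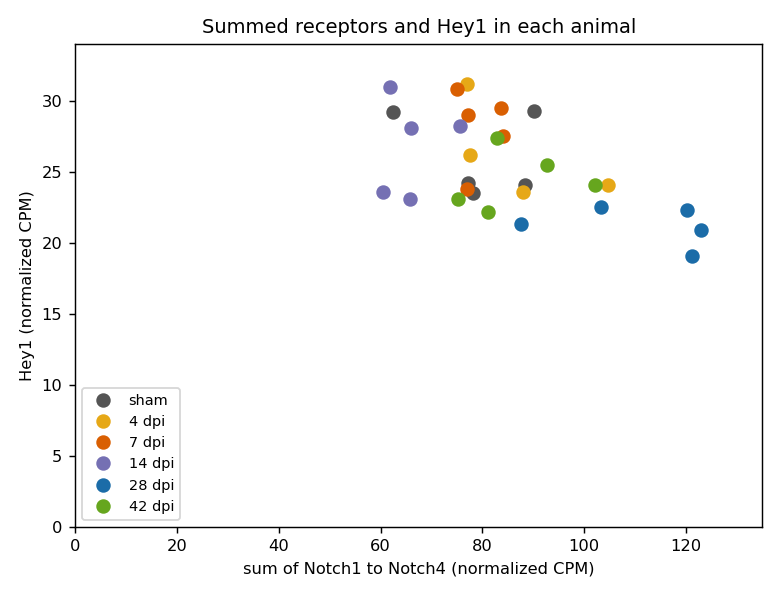
Hey1 (vertical axis, normalized CPM) against the sum of Notch1, Notch2, Notch3 and Notch4 (horizontal axis, normalized CPM) in each of the 29 animals, coloured by group. The 5 animals at 28 dpi have sums of 87.6 to 123 and Hey1 of 19.1 to 22.5. The lowest of these sums, that of A3-1, lies within the sham range (62.5 to 90.2).

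For the 4 members that passed against sham, the genes with the most similar log2 values over the 29 animals were sought among the 15496 other genes with a mean of at least 1. Notch1 was most like Soga1 (Pearson's r 0.94), Pkd1 (0.90) and Dyrk1b (0.90). Notch2 was most like Fat1 (r 0.90), Kdm5c (0.89) and Tsc2 (0.88), and Notch3 most like Lrp1 (r 0.87), Ulk1 (0.86) and Mark2 (0.86). Hey1 was most like Serp1 (r 0.84), Nap1l4 (0.83) and Ndel1 (0.82). After the group means were taken out these values lay between 0.71 and 0.84.

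Other genes of the pathway were taken from a list of 61, of which 59 had a row. At 28 dpi 11 of them were higher than in sham animals and 4 lower, 25.4% of the 59, close to the 24.9% of all genes. These calls and those of the genes named from the list are on the deposited scale: with equal column sums 35 genes of the whole table passed higher and 11214 lower, and with ribosomal RNA as a covariate in limma none did (3751 had an unadjusted p under 0.05). With limma none of them passed against sham at 4, 7, 14 or 42 dpi, and 2, 2, 3 and 12 had an unadjusted p under 0.05 (3.39%, 3.39%, 5.08% and 20.3% of the 59, where the share of all genes was 5.14%, 5.84%, 11.6% and 14.8%).
Among 5 other ligands only Dlk1, a non-canonical ligand, passed (12.3 ± 1.53 against 8.56 ± 1.42 in sham animals, log2 fold change 0.50, adjusted p = 0.0219). Among the 5 measured other Hes and Hey genes and Nrarp, only Hes7, known from the segmentation clock, was higher (0.67 on the log2 scale, adjusted p = 0.0197). Of 10 receptor-cleaving genes, which include the ADAM proteases and the gamma-secretase subunits, only Furin, which cuts the receptors during their maturation, passed (0.25, adjusted p = 0.0471). Of 5 enzymes that glycosylate the receptors, only Poglut1, an O-glucosyltransferase, passed, and it was lower (-0.18, adjusted p = 0.0320).
Of 13 genes of endocytosis and ubiquitination, only the Deltex-family ligase Dtx3l passed (0.37, adjusted p = 0.0126). In the nuclear complex 4 of 9 genes were higher and 1 lower. Rbpj, named after its values were seen as the gene of the DNA-binding protein itself, was at 39.5 ± 1.40 against 38.2 ± 2.22 in sham animals (n = 5 each) and did not pass (0.05 on the log2 scale, adjusted p = 0.539). The acetyltransferase genes Crebbp (0.48, adjusted p = 0.00387) and Ep300 (0.43, adjusted p = 0.008) and the Mastermind gene Maml2 (0.39, adjusted p = 0.0131) were higher, and the cofactor gene Snw1 was lower (-0.35, adjusted p = 0.00139).
Of 12 corepressor genes 3 were higher and 2 lower. Spen, which encodes a protein known to bind RBPJ as a repressor, was higher (0.62, adjusted p = 0.00524). Tle3, a Groucho-family corepressor gene, was higher (0.36, adjusted p = 0.00818) and the histone deacetylase gene Hdac2 lower (-0.33, adjusted p = 0.00176). From 14 to 28 dpi 18 of the 59 were higher and 10 lower, 47.5% against 43% of all genes, and from 28 to 42 dpi only Snw1 passed (0.27, adjusted p = 0.0269).

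The changes at 28 dpi moved with transcript length. With the genes split into 10 classes by the length of their longest transcript, the median log2 fold change was -0.17 in the second-shortest class and 0.16 in the longest class (6652 bases or more), in which 30.9% of genes were called higher. Notch1, Notch2 and Notch3 belong to the longest class, Notch4 and Jag1 to the next, and Hey1 to the fourth-shortest, whose median was -0.07. Within its class Notch3 lay above 97.9% of genes, Notch1 above 93.7%, Notch2 above 75.7%, and Hey1 above 13.4%. After a correction for length and GC content within each animal, the log2 fold changes of Notch1, Notch3 and Hey1 still passed, and that of Notch2 was 0.13 with an adjusted p of 0.243.

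**Figure D5:**
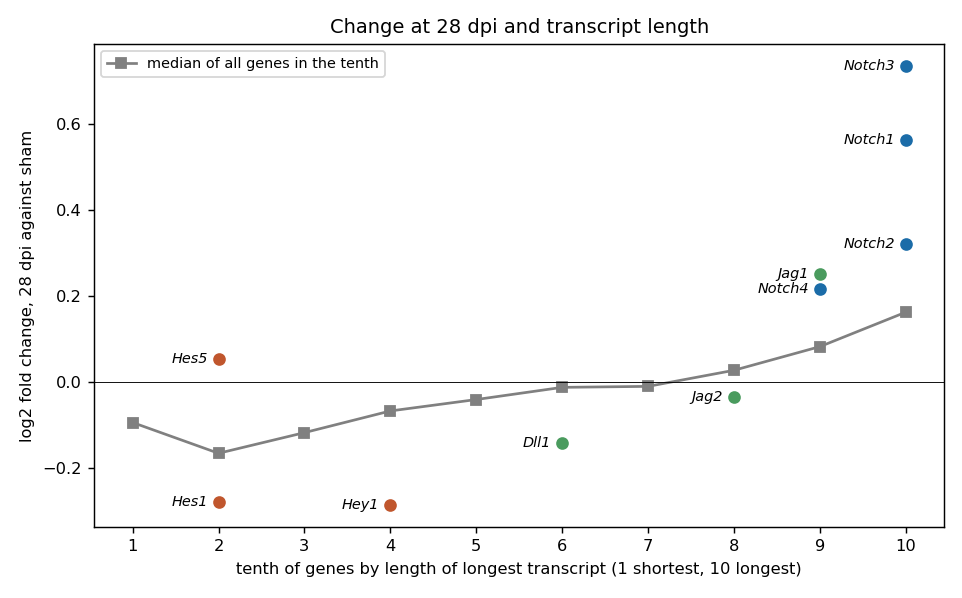
Log2 fold change at 28 dpi against sham on the deposited scale, for genes split into 10 classes by transcript length (1 shortest, 10 longest): grey squares are the median of all genes in a class and coloured points the 10 members. The medians run from -0.17 in the second-shortest class to 0.16 in the longest, where Notch3 (0.74) and Notch1 (0.56) lie far above and Notch2 (0.32) nearer to the median; with equal column sums the values of these 3 receptors lie below 0, as does the median of all genes (-0.72).

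Ribosomal RNA also moved with the group. By the methods of the study, the total RNA was depleted of ribosomal RNA before library making, so this row holds what was left. Rn18s-rs5 lay between 30321 and 52929 in sham animals, and above that range in 4 of 5 animals at 28 dpi (up to 779160). With its log2 value as a covariate in limma no gene passed at 28 dpi, although 3751 genes had an unadjusted p under 0.05: Notch1 was at 0.51 (adjusted p = 0.0690), Notch2 at 0.29 (adjusted p = 0.221), Notch3 at 0.77 (adjusted p = 0.0547) and Hey1 at -0.24 (adjusted p = 0.222). The 28 dpi animal within the sham range of this row, A4-1 (44755), had Notch1 at 42.6 and Notch3 at 18.1, above every sham animal, and Hey1 at 22.5, below every sham animal, while its Notch2 of 36.3 was within the sham range. At 42 dpi all 5 animals were above the sham range of the row (78737 to 457302), and no member passed against sham there. The row was at 32754, 40691, 95114, 419050 and 817780 in the 14 dpi animals, where no member passed against sham either. The values of A4-1 are those of a single animal, and the part of ribosomal RNA in the member values was not tested.
Setting all columns to an equal sum, which counts this row in, shifted the median log2 fold change of all genes at 28 dpi against sham to -0.72; the values of Notch1, Notch2, Notch3 and Hey1 were then -0.22, -0.46, -0.02 and -1.06, and relative to that median 0.50, 0.26, 0.70 and -0.33. On that scale 35 genes passed higher and 11214 lower at 28 dpi, against 2024 and 2206 on the deposited scale, and 0 members passed higher and 4 lower (Jag2, Dll1, Hes1 and Hey1). From 14 to 28 dpi and from 28 to 42 dpi no member passed in limma on that scale (3 and 0 had an unadjusted p under 0.05), while the 4 receptors and Hey1 kept their direction in the first of these comparisons, as did Notch1 and Notch3 in the second. This scaling was added after the data were seen.

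Markers of cell types were counted at 28 dpi, first against sham, where 24.9% of all genes passed. At 28 dpi none of 8 markers of mural cells passed with limma (1 had an unadjusted p under 0.05), and their summed value was 121.5 to 150.5 against 124.2 to 150.2 in sham animals. Of 7 endothelial markers 2 were higher, with a sum of 129.3 to 200.6 against 121.6 to 151.6. Of 8 astrocyte markers 1 was higher and 3 were lower (sum 3805 to 4145 against 3563 to 4003), and of 6 oligodendrocyte markers 4 were lower (sum 4476 to 6587 against 6223 to 9261). No measured marker of these 4 lists was at 0 in all animals of either group. Of the remaining lists, ependymal cells (4 markers), motor neurons (4) and pituitary (3 measured) had none that passed, and none with an unadjusted p under 0.05 in limma. The pituitary sum was 0.2 to 0.7 in sham animals and 0.2 to 14.4 at 28 dpi. Neurons had 1 of 6 higher and 1 lower, oligodendrocyte precursors 1 of 4 lower, microglia 1 of 5 higher, meningeal fibroblasts 1 of 5 higher and erythroid cells 1 of 3 higher.
From 14 to 28 dpi, where the receptors rose on the deposited scale and 43% of all genes passed, 5 of 6 oligodendrocyte markers were lower (sum 6270.5 to 7780.6 at 14 dpi and 4475.7 to 6586.9 at 28 dpi) and 3 of 5 microglia markers were lower (77.3 to 97.8 and 58 to 88.4). Higher were 3 of 7 endothelial markers (119.1 to 147.1 and 129.3 to 200.6) and 2 of 4 markers of oligodendrocyte precursors (62.2 to 69.9 and 66.5 to 80.8). Astrocytes and neurons each had 1 marker higher and 1 lower, mural cells, meningeal fibroblasts and erythroid cells 1 higher each, and ependymal cells, motor neurons and pituitary none that passed with limma, with 1, 0 and 0 at an unadjusted p under 0.05.
From 28 to 42 dpi, where 0.494% of all genes passed lower, 2 of 4 markers of oligodendrocyte precursors were lower (66.5 to 80.8 at 28 dpi and 63.4 to 69.9 at 42 dpi), and no marker of the other lists passed with limma (13 of 59 had an unadjusted p under 0.05). The part of endothelial, astrocyte, oligodendrocyte, oligodendrocyte precursor and microglial content in the receptor values was not tested.

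The library kit did not mark the strand, so that reads of an overlapping gene on the other strand cannot be told apart. Of the 31-base words of the Notch1 transcripts 9.40% also occur in other genes, of those of Notch3 6.59%, of Notch2 4.28%, of Dll1 17.9% and of Hes5 25.7%, nearly all of them in genes that overlap. Among the receptors themselves no such word was shared, and Hey1, Hes1, Notch4 and Jag1 shared none with any gene. Gm17276, named after its values were seen because it overlaps Notch3 on the other strand, had 2.44 ± 0.329 normalized CPM at 28 dpi and 1.84 ± 0.498 in sham animals (log2 fold change 0.35, adjusted p = 0.162), beside the 17.6 and 10.4 of Notch3.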

How the data were processed

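RNA-seq libraries were made from single animals with an unstranded kit, after depletion of ribosomal RNA. Per the methods of the study, reads were quantified with SALMON on mm10, summarized per gene with Tximport and normalized with edgeR (3.14.0 and R 3.4.1 in the submitters' processing notes), and genes of low expression were removed. The deposited table gives 1 value per gene and animal, a normalized CPM rounded to 0.1; because its columns do not add up to a fixed total, the deposited values were handled as a score and not as plain CPM or counts, and the depth per library is unknown. It also holds columns of the authors' own comparisons (fold changes, test statistics and p-values), which were not used.

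Values were transformed as log2(value + 0.5). One linear model with the 6 groups was fitted to all 16995 genes and 29 animals with limma 3.58.1 (R 4.3.3, trended variance), and p-values were adjusted by Benjamini-Hochberg over all genes. A common model gave all comparisons a shared estimate of the spread. The script was tested on simulated data. Replicates were separate animals, and no 2 columns were the same. Correlations of log2 values lay between 0.974 and 0.991 within groups and between 0.952 and 0.992 across groups, so these ranges overlapped.

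Members and gene lists were chosen with earlier results of these data known. Named were all 10 members, up to 4 genes of each pathway list that passed at 28 dpi with the largest changes, and the 3 genes most like each member that passed against sham; Rbpj, Gm17276 and the genes of the closing section were named outside this rule. The values of 1 gene that this rule names are not reported here. Transcript length and GC content came from GENCODE M21 (16919 genes, 99.6%). Alternatives were another pseudocount, a filter on means under 1, quantile and median scaling, fits of 2 groups, the animal number as a block, ribosomal RNA as a covariate, a length and GC correction, a fold limit, each animal left out, and, added after the data were seen, equal column sums. Figures were drawn with matplotlib 3.10.9.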

Additional observations from a re-analysis of the deposited data

Results flagged for a closer look

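In 3 of 60 sets of one gene in one group, 1 animal stood far from the rest of its group by Dixon's criterion, which chance meets in about 1 of 20 sets. Notch1 at 14 dpi was 28.6 normalized CPM in A6-3, above the other 4 animals. Notch3 at 4 dpi was 16.3 in A10-4, above the other 3. Jag1 at 28 dpi was 12.1 in A3-3, above the other 4. A6-3 and A3-3 had the highest values of the 18S ribosomal RNA row among all animals (817780 and 779160), while A10-4 was at 29279.

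The values differed between stroke groups for 5 members, by the limma test of the difference itself with adjustment over all genes. Of all genes, 43% passed the same test between 14 and 28 dpi. With equal column sums no member did in limma (3 had an unadjusted p under 0.05). The log2 fold change at 28 dpi exceeded that at 14 dpi by 0.85 for Notch1, 0.60 for Notch2, 0.79 for Notch3 and 0.44 for Notch4, and for Hey1 the difference was -0.32. From 28 to 42 dpi the difference was -0.49 for Notch1 and -0.50 for Notch3, a test that 1.94% of all genes passed and, with equal column sums, no member (0 at an unadjusted p under 0.05). The sham animals cancel out of these differences, which compare stroke groups only. The time point cannot be told apart from a numbering batch there.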

How the results depend on the processing

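Depth per library is unknown, low values such as those of Hes5 are limited by rounding, and time point and animal number cannot be told apart. No called member value changed direction under the planned settings. Of the 693 member values under the other planned settings 668 kept their side of the threshold, 20 lost it and 5 gained it; of the 690 with 1 animal left out 664 kept it, 24 lost it and 2 gained it. In 39 of 1383 comparisons a value called in neither setting changed sign. The cause of the shifts in counts was not tested.

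Genes called were 1 at 7 dpi with a pseudocount of 0.05, quantile normalization, median centring, a fit of 2 groups or the length and GC correction. With fits of 2 groups they were 9, 2, 2202 and 70 on days 4, 14, 28 and 42 and 2 from 28 to 42 dpi. With the animal number as a random block (consensus correlation -0.0441) they were 30 at 4 dpi, 83 at 42 dpi and 746 from 28 to 42 dpi. With the ribosomal RNA covariate they were 2 at 14 dpi, 0 at 28 dpi (limma, 3751 at an unadjusted p under 0.05), 10 at 42 dpi and 160 from 28 to 42 dpi. With the length and GC correction they were 29 at 4 dpi, 15 at 42 dpi and 32 from 28 to 42 dpi. With the fold limit they were 789 at 28 dpi, 2002 from 14 to 28 dpi and 38 from 28 to 42 dpi.

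With equal column sums, added after the data were seen, genes called were 20, 33, 11249 and 142 on days 7, 14, 28 and 42, 716 from 14 to 28 dpi and 11 from 28 to 42 dpi, members called were 0 in the last 2 comparisons, and at 28 dpi Notch1, Notch2 and Notch3 reversed, to -0.22, -0.46 and -0.024 on the log2 scale, without passing in limma (adjusted p = 0.459, 0.112 and 0.938); relative to the median of all genes (-0.72) they stood at 0.50, 0.26 and 0.70.

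Members called at 28 dpi were 0 with the covariate and 1 with the fold limit; from 14 to 28 dpi they were 3 with the fold limit. From 28 to 42 dpi they were 1 with the pseudocount of 0.05 or the covariate, and 0 with fits of 2 groups, the length and GC correction or the fold limit. In the F test they were 3 with the covariate or the length and GC correction. In the 2-group fit Notch2 at 28 dpi had an adjusted p of 0.09097.

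With each animal left out in turn, genes called ranged from 3 to 41 at 4 dpi (3 without A10-4, 4 without A9-4, 41 without A9-2), 1 to 8 on day 7, 1 to 1 on day 14, 2198 to 5030 on day 28 (2198 without A12-1, 2237 without A3-3), 1 to 14 on day 42, 6062 to 7550 from 14 to 28 dpi and 1 to 1278 from 28 to 42 dpi (1 without A3-3, 1278 without A3-1). Members called ranged from 2 to 4 at 28 dpi (2 without A12-1 or A4-3), 4 to 6 from 14 to 28 dpi, 0 to 2 from 28 to 42 dpi, 3 to 5 in the F test (3 without A4-3), and 0 to 0 at the other time points. No paired analysis was possible because no full animal number occurs in more than 1 group.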

Other observations

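Outside the rule for named genes, and chosen after their values were seen, these were the genes most similar over the 29 animals to the 6 members that did not pass against sham. They were Abcc4 for Notch4 (Pearson's r 0.79), Gk5 for Jag1 (0.71), Sbk1 for Jag2 (0.71), Fbxl8 for Dll1 (0.67), Nts for Hes1 (0.72) and Gm26035 for Hes5 (0.67). After the group means were taken out, these values lay between 0.67 and 0.70. They are descriptions over animals that share libraries, without a test.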
